A study of Mus musculus with 2 samples.

Results

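Transcripts of 8 genes that carry signals from growth factor receptors to the RAF kinases were compared between 1 Setd2 knockout and 1 wild-type line of mouse embryonic stem cells (mESCs). The 8 genes, Grb2, Ptpn11, Sos1, Nras, Hras1, Eras, Braf and Araf, were given by name, and each had a row among the 17817 genes of the deposited table. Both lines were of mixed 129SV/C57BL/6 strain at passages 10 to 12, grown on feeder cells, plated on gelatin for 0.5 h to remove feeders, passaged once more and collected 2 days later without treatment. The knockout library came from cells labelled as Setd2 KO, Setd2 being a histone methyltransferase gene acting over transcribed genes, and the other from cells labelled wild type. The kind of mutation, and whether each line was 1 clone, was not stated in the labels. With 1 library in each group there was no test and no p-value, and every difference below describes these 2 libraries.

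Growth factor receptors recruit the adaptor GRB2, which brings the exchange factor SOS to the membrane, where it loads RAS proteins with GTP. RAS-GTP then binds RAF kinases, which start the MEK and ERK kinase cascade. The phosphatase SHP2, encoded by Ptpn11, is needed for full RAS activation downstream of many receptors. In mouse embryonic stem cells this route, fed by FGF4, moves cells out of self-renewal and towards primitive endoderm, while ERAS is a RAS protein expressed in these cells that stays active without a receptor signal and supports their growth.

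The paralogs among the 8 genes are similar in coding sequence, so the closest stretches of 1 read length (76 bases) were compared to see whether a read could belong to either gene. In the longest coding sequences of the GENCODE annotation, the closest stretch of Nras and Hras1 differed at 9 of 76 bases, at coding bases 285 to 360 of both genes. That pair is printed 5′ to 3′ on the coding strand, with capitals at the bases that differ between them.
Nras: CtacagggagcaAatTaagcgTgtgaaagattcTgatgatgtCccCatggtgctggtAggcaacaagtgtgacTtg
Hras1: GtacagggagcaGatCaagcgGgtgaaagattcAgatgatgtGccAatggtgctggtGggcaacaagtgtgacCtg
Eras stood further away, and its closest stretch to Hras1 differed at 21 of 76 bases. Araf and Braf differed at 16 at their closest, and Sos1 and its paralog Sos2 at 10. When windows of 76 bases from the annotated exons were aligned to the genome, 0 of 174 windows of Hras1 and 0 of 48 of Eras had another place with up to 2 mismatches. The share was under 3% for 7 of the 8 genes. The exception was Grb2, with 24 of 125 windows (19.2%) shared with Gm12791, an annotated pseudogene on chromosome 4 that has a row of its own in the table.

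Setd2 transcript was lower but still abundant in the library labelled knockout, at 174 CPM in Setd2 KO cells and 452 CPM in wild-type cells (38.5% of the wild-type level), where CPM is the read equivalents of a gene (units of 76 sequenced bases) per 1000000 over all genes of that library. One CPM was 52.0 read equivalents in Setd2 KO cells and 56.1 in wild-type cells. The stem cell markers Pou5f1 (544 CPM in Setd2 KO and 558 CPM in wild-type cells), Sox2 (417 CPM in Setd2 KO and 458 CPM in wild-type cells) and Nanog (310 CPM in Setd2 KO and 221 CPM in wild-type cells) were abundant in both. Of the 12 stem cell markers in the table, 10 had a log2 fold below 0, where 43.6% of all genes compared were, with a median of -0.25. Zfp42, a stem cell marker on chromosome 8, stood at 68.1 CPM in Setd2 KO and 283 CPM in wild-type cells, a ratio of 0.241. The 719 genes compared on chromosome 8 had a median log2 fold of -0.35. Windows shared with other places made up 54.5% of those of Zfp42, 37.1% of those of Nanog, 19.4% of those of Pou5f1 and 0% of those of Sox2. Of the 12 stem cell markers, Zfp42 alone was 2-fold lower, where 2.11% of all genes compared were. Of the same 12, 0 were 2-fold higher, where 1.76% were. Transcripts of the Y chromosome set the lines apart beyond Setd2, with 8 rows summing to 331 CPM in Setd2 KO cells and 0.835 CPM in wild-type cells. Primitive endoderm markers were lower in Setd2 KO cells, where the 14 markers in the table summed to 611 CPM, against 895 CPM in wild-type cells. Of the 10 over a floor of 1 CPM (the mean of both libraries), 7 were lower by 2-fold or more, where 2.11% of all genes compared were, and 0 higher, where 1.76% were. The 7 include Gata6 and Sox7, which were under 1 CPM in Setd2 KO cells and reached the floor through the wild-type library alone. Col4a1 and Col4a2, also among the 7, lie next to each other on chromosome 8. Afp was listed at 0 in both. Feeder fibroblast markers summed to 224 CPM over 16 genes in Setd2 KO cells and 312 CPM in wild-type cells, with Lum under the floor at 0 read equivalents in Setd2 KO and 4 in wild-type cells. Of the 12 feeder markers over the floor, 10 had a log2 fold below 0, where 43.6% of all genes compared were. Prrx1 alone was 2-fold lower (2.70 CPM in Setd2 KO and 5.97 CPM in wild-type cells), where 2.11% were, and 0 were 2-fold higher, where 1.76% were. The 2 above 0 were Pdgfrb (10.7 CPM in Setd2 KO and 6.72 CPM in wild-type cells) and Twist1 (2.04 CPM in Setd2 KO and 1.64 CPM in wild-type cells). The part of these cell mixtures, and of the difference in Y transcripts, in the levels below was not tested, and in bulk RNA fewer cells of a type and less RNA per cell cannot be told apart.

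All 8 genes were expressed above the floor in both libraries, and none stood 1.5-fold apart. Nras had the highest ratio, 1.33, and Ptpn11 the lowest, 0.854. On the log2 scale with 0.5 CPM added, the folds of the 8 genes (knockout over wild type) ran from -0.23 to 0.41 with a median of 0.09, beside a median of 0.05 over the 13523 genes that reached the floor. Of the 8 genes 0 were at least 2-fold apart, where 3.87% of all genes compared were (1.76% higher and 2.11% lower in Setd2 KO cells), and 0 were at least 1.5-fold apart, where 14.2% were. Among the 7030 genes with a mean CPM between the lowest and the highest of the 8, 9.63% were at least 1.5-fold apart. Folds of 6 genes lay within the quartiles of all genes compared, with Nras above the upper and Ptpn11 below the lower quartile.

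**Figure D1:**
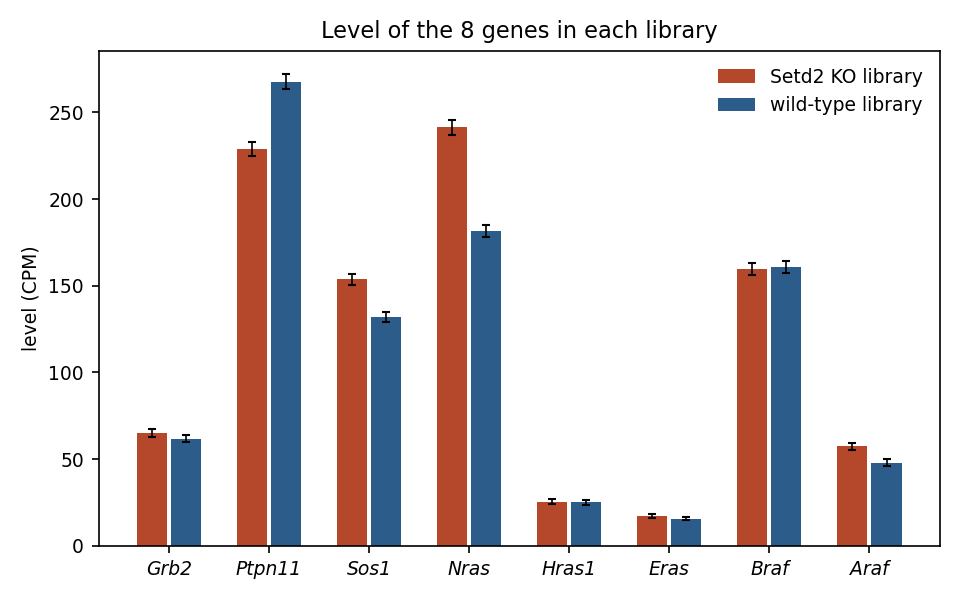
Level of each of the 8 genes in CPM in the Setd2 KO library (left bar of each pair) and the wild-type library (right bar), with 95% Poisson counting intervals as error bars and 1 library per genotype. Bars are to be compared within a gene, since CPM is not corrected for length; Nras stood at 241 CPM in Setd2 KO against 182 CPM in wild-type cells, and Ptpn11 at 229 CPM in Setd2 KO against 268 CPM in wild-type cells.

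The adaptor genes come first in the pathway. Grb2 (gene number 14784, minus strand, mm9 chr11:115505458-115569911) encodes the adaptor that links phosphorylated receptors to SOS. It stood at 64.8 CPM (3375 read equivalents) in Setd2 KO cells and 61.7 CPM (3466) in wild-type cells. The ratio was 1.05 with a 95% counting interval of 1.00 to 1.10. This interval and those below are exact binomial intervals on rounded read equivalents. They cover counting error only and leave out variation between cultures, and without molecular identifiers a molecule could have been counted more than 1 time. The pseudogene Gm12791, named after the shared windows were seen, stood at 28.1 CPM in Setd2 KO cells and 24.3 CPM in wild-type cells. Summed over both rows the ratio was 1.08 (interval 1.04 to 1.12).

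Ptpn11 (19247, minus strand, chr5:121580542-121641406) encodes the phosphatase SHP2, which is recruited by docking proteins such as FRS2 and GAB1. It stood at 229 CPM (11901 read equivalents) in Setd2 KO cells and 268 CPM (15023) in wild-type cells. Its ratio of 0.854 (interval 0.834 to 0.875) was the only one of the 8 whose interval lay below 1 with the library totals as scale. The knockout level was 85.4% of the wild-type one, a smaller difference than the 1.5-fold threshold.

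Sos1 (20662, minus strand, chr17:80793092-80879793), the exchange factor that GRB2 carries, stood at 154 CPM (7994 read equivalents) in Setd2 KO cells and 132 CPM (7406) in wild-type cells. The ratio was 1.16 (interval 1.13 to 1.20). Its paralog Sos2, at 26.2 CPM in Setd2 KO and 25.3 CPM in wild-type cells, had a ratio of 1.04 (0.961 to 1.12). Per kb of exon Sos1 made up 78.7% of the summed Sos1 and Sos2 level in Setd2 KO cells and 76.6% in wild-type cells.

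The RAS genes encode the GTPase switches of the pathway. Nras (18176, plus strand, chr3:102862208-102871837) stood at 241 CPM (12559 read equivalents) in Setd2 KO cells and 182 CPM (10192) in wild-type cells, a ratio of 1.33 (interval 1.29 to 1.36). Hras1 (15461, minus strand, chr7:148377247-148378839) stood at 25.4 CPM (1324 read equivalents) in Setd2 KO cells and 25.0 CPM (1405) in wild-type cells. Its ratio was 1.02 with an interval of 0.942 to 1.10, which holds 1. Eras (353283, minus strand, chrX:7501402-7505733) stood at 16.8 CPM (876 read equivalents) in Setd2 KO cells and 15.6 CPM (877) in wild-type cells. The ratio of 1.08 had a counting interval of 0.980 to 1.18, which holds 1. Eras had the fewest reads of the 8 genes and the widest interval.

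Per kb of exon, Nras made up 69.9% of the summed level of Nras, Hras1 and Eras in Setd2 KO cells and 64.9% in wild-type cells. The share of Eras was 20.9% in Setd2 KO and 24.0% in wild-type cells, and that of Hras1 9.13% in Setd2 KO and 11.1% in wild-type cells. Nras held the highest of these shares in both libraries with each of the 3 lengths tried. With the longest annotated transcript as length, its share was 68.9% in Setd2 KO and 63.8% in wild-type cells. Over the exon bases inside each row of the table, the share of Nras was 59.8% in Setd2 KO and 53.9% in wild-type cells. On that length Hras1, whose row covers part of the annotated gene, came above Eras, with 22.5% in Setd2 KO and 26.4% in wild-type cells, against 17.7% in Setd2 KO and 19.7% in wild-type cells for Eras.

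The RAF kinase genes receive the RAS signal. Braf (109880, minus strand, chr6:39553237-39675462) encodes the RAF kinase with the highest basal activity. It stood at 159 CPM (8297 read equivalents) in Setd2 KO cells and 161 CPM (9028) in wild-type cells, and its ratio of 0.991 (interval 0.962 to 1.02) was the closest to 1 of the 8 with the library totals as scale. With the median log2 ratio set to 0, Braf stood at 0.955 and Grb2 was closest, at 1.01. Araf (11836, plus strand, chrX:20425669-20437647), the X-linked RAF gene, stood at 57.3 CPM (2981 read equivalents) in Setd2 KO cells and 47.9 CPM (2689) in wild-type cells. Its ratio was 1.20 (interval 1.13 to 1.26). The median log2 fold of the 506 X-linked genes compared was 0.17. Araf stood at 0.26 on that scale and Eras, also X-linked, at 0.10. The Araf row overlaps the end of Syn1 on the other strand by 11 bases, and no source used here states whether the counting used strand.

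**Figure D2:**
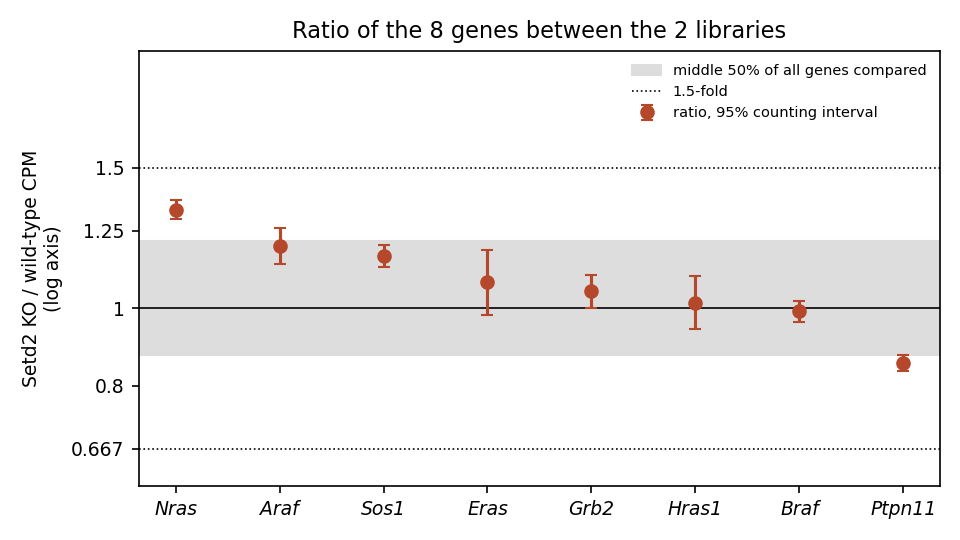
Ratio of Setd2 KO to wild-type CPM for each of the 8 genes on a log axis, in falling order, with 95% counting intervals. The grey band holds the middle 50% of all genes compared and dotted lines mark 1.5-fold; all 8 genes lie between the dotted lines, with Nras at 1.33 and Ptpn11 at 0.854 outside the band.

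The counting intervals of 4 genes (Nras, Araf, Sos1 and Grb2) lay above 1, that of Ptpn11 below 1, and those of 3 genes (Hras1, Eras and Braf) held 1. These sides depended on the scale for the genes nearest to 1. With the knockout library rescaled to a median log2 ratio of 0, the interval of Grb2 held 1 (0.964 to 1.06), that of Braf lay below 1 (0.927 to 0.984), and the log2 fold of Hras1 turned from 0.02 to -0.03. Nras, Araf and Sos1 stayed above 1 and Ptpn11 below 1 under all 3 rescalings tried.

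Levels of different genes were compared per kb of exon, using the union of annotated exons of the GENCODE annotation of the same assembly. In this measure Nras was the most abundant of the 8 in both libraries, at 52.2 CPM per kb in Setd2 KO and 39.3 CPM per kb in wild-type cells. Ptpn11 was next, at 30.5 CPM per kb in Setd2 KO and 35.7 CPM per kb in wild-type cells, followed by Grb2 at 22.2 CPM per kb in Setd2 KO and 21.2 CPM per kb in wild-type cells. In Setd2 KO cells Sos1 stood at 17.2 CPM per kb, Eras at 15.6, Braf at 11.5, Araf at 8.76 and Hras1 at 6.81. In wild-type cells Sos1 stood at 14.8 CPM per kb, Eras at 14.5, Braf at 11.6, Araf at 7.33 and Hras1 at 6.70. The order of the 8 was the same in both libraries. In the wild-type library the counting intervals of the neighbours Sos1 (14.5 to 15.1) and Eras (13.6 to 15.5) overlapped, and so did those of Araf (7.05 to 7.61) and Hras1 (6.36 to 7.07). The median gene with a known length stood at 7.28 CPM per kb in Setd2 KO and 7.21 CPM per kb in wild-type cells. Nras lay above 90.7% of genes in Setd2 KO and 87.4% in wild-type cells. Hras1 lay a little below the median with the union of exons as length, but not over the exon bases inside its row, as given next.

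The lower part of this order depended on the length. The table's row of Hras1 covers 1593 of the 4901 bases of the annotated gene and 1283 of its 3733 exon bases. Over those exon bases alone Hras1 stood at 19.8 CPM per kb in Setd2 KO and 19.5 CPM per kb in wild-type cells, above the level of the median gene over its union of exons. With the longest annotated transcript, Araf stood at 20.1 CPM per kb in Setd2 KO and 16.8 CPM per kb in wild-type cells. The order Nras, Ptpn11 and Grb2 at the top was the same with all 3 lengths in both libraries.

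**Figure D3:**
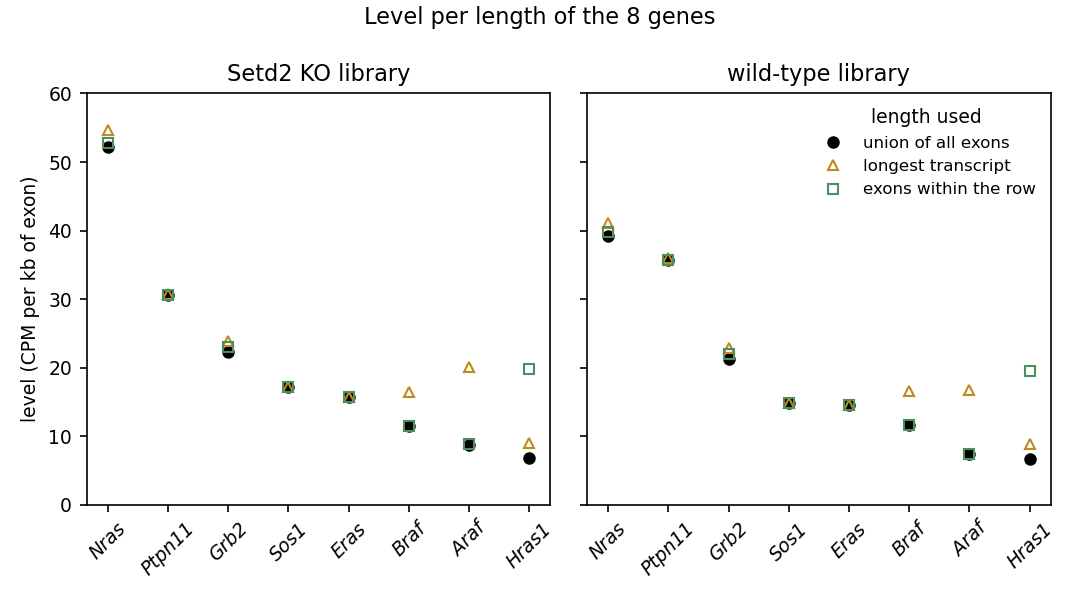
Level of the 8 genes in CPM per kb of exon in the Setd2 KO library (left panel) and the wild-type library (right panel), with 3 choices of length as separate symbols and genes ordered by the level with the union of exons in Setd2 KO cells. Nras, Ptpn11 and Grb2 lead with each length, while Hras1 ranges from 6.81 to 19.8 CPM per kb in Setd2 KO cells.

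The other genes of the pathway were read from lists by role, leaving out the 8. Of 83 such genes over the floor, 5 were higher by 1.5-fold or more in Setd2 KO cells, where 7.42% of all genes compared were, and 4 were lower by 1.5-fold or more, where 6.77% of all genes compared were. Their median log2 fold was 0.06. On that scale, which has 0.5 CPM added, Mras alone of the 83 passed 2-fold, where 3.87% of all genes compared did. Without that addition the adaptor genes Gab2 and Gab3, both under 5 CPM in each library, passed it too. Their plain ratios were 2.21 (interval 1.76 to 2.80) for Gab2 and 2.25 (1.58 to 3.22) for Gab3.

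Of 12 other RAS-subfamily GTPase genes, 10 had a log2 fold above 0 and 2 below, with a median of 0.29, while 56.4% of all genes compared were above 0. Rap1b, a RAP GTPase gene named after its value was seen, stood at 180 CPM in Setd2 KO and 133 CPM in wild-type cells. Mras went the other way, at 1.54 CPM in Setd2 KO and 3.80 CPM in wild-type cells, a ratio of 0.405 (interval 0.309 to 0.526). MRAS joins SHOC2 in a phosphatase complex that activates RAF kinases.

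RAF scaffolds, 14-3-3 proteins and other RAF regulators had a median of 0.05 over 19 genes. The scaffold gene Ksr1, which holds RAF and MEK together, was at 23.1 CPM in Setd2 KO and 39.7 CPM in wild-type cells, a ratio of 0.582 (0.542 to 0.625). Cnksr2, another scaffold gene, was at 7.65 CPM in Setd2 KO and 3.89 CPM in wild-type cells, a ratio of 1.97 (1.67 to 2.33). On the log2 scale with 0.5 CPM added, these 2 of the 19 were 1.5-fold apart, where 14.2% of all genes compared were. The other genes of the 19 were within 1.5-fold on that scale. Without that addition Ksr2, named after its value was seen, had a ratio of 0.651 at 1.17 CPM in Setd2 KO and 1.79 CPM in wild-type cells.

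The other receptor adaptors had a median of 0.09 over 22 genes, with 4 at least 1.5-fold higher, where 7.42% of all genes compared were, and 0 lower, where 6.77% were. The number 1.5-fold apart in either direction was 1 with a floor of 5 CPM and 6 with 0.1 CPM added in place of 0.5. Grb10, an imprinted gene whose adaptor restrains insulin receptor signalling, was at 406 CPM in Setd2 KO and 224 CPM in wild-type cells, a ratio of 1.81 (1.77 to 1.85). The other 3 were Gab2, Gab3 and Grb14, named after their values were seen, all under 6 CPM in both libraries. Gab3 reached the floor because of its level in Setd2 KO cells alone, and 28.4% of its windows were shared with other places. Cbl, a ubiquitin ligase gene that sends receptors to degradation, had the lowest fold, -0.58 on the log2 scale with 0.5 CPM added, just inside 1.5-fold, and a plain ratio of 0.666, with 30.5% of its windows shared with other places.

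Exchange factors outside Sos1 had a median of 0.01 over 11 genes, with Rasgrp2 at the low end (7.80 CPM in Setd2 KO and 12.1 CPM in wild-type cells) and Rgl1 at the high end (8.75 CPM in Setd2 KO and 5.87 CPM in wild-type cells). GTPase-activating proteins, which switch RAS off, had a median of -0.10 over 9 genes, 7 of them below 0, where 43.6% of all genes compared were. Rasa3 was at 32.0 CPM in Setd2 KO and 57.8 CPM in wild-type cells, a ratio of 0.553 (0.521 to 0.586), and lies on chromosome 8, whose 719 genes compared had a median log2 fold of -0.35. Rasa1 had the highest fold, 0.02, of those at a mean of 5 CPM or more. Genes for the lipid modification, processing and traffic of RAS proteins had a median of 0.02 over 10 genes. Of these, 0 were 1.5-fold apart, where 14.2% of all genes compared were. Their ends were the palmitoyltransferase gene Zdhhc9 (0.50) and Fnta (-0.40), a farnesyltransferase subunit gene on chromosome 8.

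**Figure D4:**
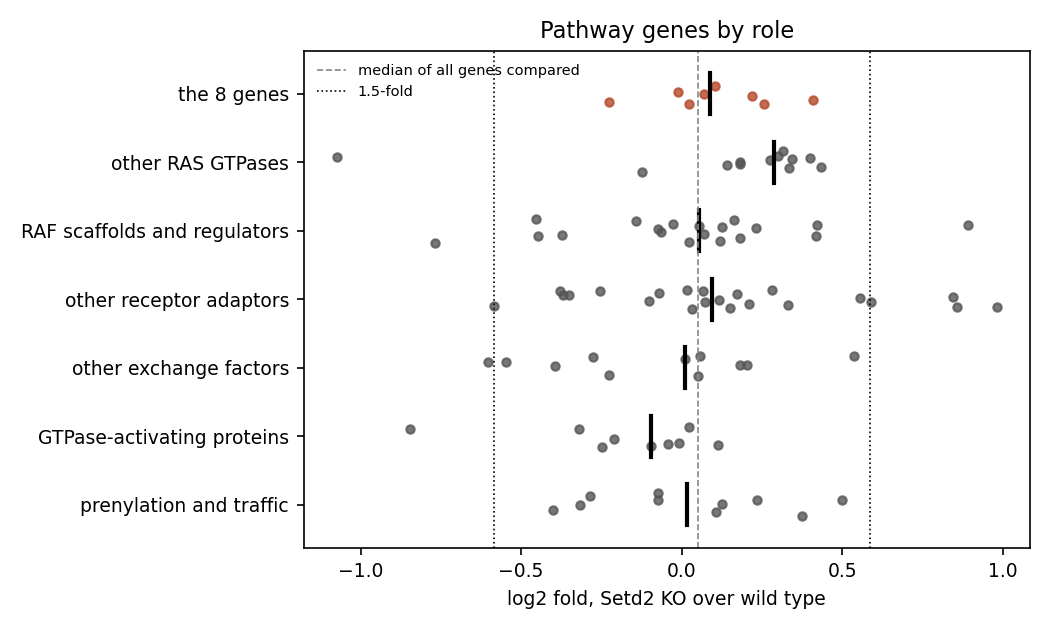
Log2 fold of Setd2 KO over wild type for the 8 genes (top row) and the other pathway genes over the floor by role, one point per gene with black bars at the medians. The dashed line is the median of all genes compared and dotted lines mark 1.5-fold; the other RAS GTPases have a median of 0.29, and the 8 genes one of 0.09.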

How the data were processed

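Total RNA of 1 Setd2 knockout and 1 wild-type mESC line was sequenced. The submitters' processing notes name TopHat 1.0.13, CASAVA 1.6.0 and mm9, without their roles. The deposited columns are headed RPKM but hold log2 values that behave as log2(x + 1), with x the bases sequenced over a gene divided by 76 and no scaling by depth or length. Of back-transformed values below 200, 85.7% (knockout) and 85.9% (wild type) were a whole number of bases within 0.05. No source used here says how the authors made them.

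Values were turned back and scaled to 1000000 per library, over totals of 52041677 read equivalents in the knockout and 56129838 in the wild-type library. Where rows shared a symbol, the one with the highest mean was used. Folds used a pseudocount of 0.5 CPM and a floor of 1 CPM. Exon lengths, coding sequences and windows (every 20 bases, minimap2 2.31, up to 2 mismatches) came from GENCODE M1 on NCBIM37, the assembly of mm9. Calculations used Python 3.11.15 with scipy 1.17.1, and were tested on simulated data. Alternatives were other pseudocounts, floors, scalings, row sums and lengths.

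The members and lists were chosen with earlier results of these data known. Named genes were the 8, their paralogs, Setd2, and in each list those past 2-fold or otherwise the highest and lowest fold with a mean of at least 5 CPM, plus the genes on either side of each of the 8. Some genes that this rule names are not reported here, and the counts over lists and neighbours leave them out.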

Additional observations from a re-analysis of the deposited data

How the results depend on the processing

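No paired analysis was possible because there was 1 library per genotype, so leaving out a library was not possible either. Under the pseudocounts, floors, scalings and row sums tried, 0 of the 8 genes were 1.5-fold apart in each, and the median log2 fold of the 8 stayed between 0.03 and 0.09. The rescalings lowered all log2 folds by 0.03 to 0.05. Of 64 recomputed folds of the 8 genes, 56 stayed within their counting intervals and 8 did not. Other floors and summed rows left the folds of the 8 genes, and so their median, unchanged, and were no test of them. Other pseudocounts shifted these folds only slightly. The 8 outside were the folds of Nras, Braf, Sos1 and Ptpn11 after rescaling by the median or by a trimmed mean of log ratios. These genes had the most reads of the 8 genes and so the narrowest intervals. A rescaling shifts all genes nearly alike, so the count of 56 is no test of the folds. Rescaling by the upper quartile left all folds of the 8 genes inside. Nras stayed between 0.36 and 0.41 and Ptpn11 between -0.28 and -0.23, while Hras1 ran from -0.03 to 0.02. The number of all genes at least 2-fold higher was 238, and 108 with a floor of 5 CPM, which tests fewer genes; the other recomputed counts of 2-fold higher or lower genes were within 1.5 times those reported. The median of the other RAS GTPases ran from 0.24 to 0.31. The number of other adaptors 1.5-fold apart ran from 1, with a floor of 5 CPM, to 6. The exons within the span of the table's row were chosen as a length after the data were seen.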

Other observations

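The rows next to the 8 genes on their chromosomes were read as a description of their surroundings. Of 15 such rows 13 passed the floor of 1 CPM. On the log2 scale with 0.5 CPM added, 0 of these 13 were 1.5-fold apart, where 14.2% of all genes compared were. Beside Eras, the deacetylase gene Hdac6 lies 1514 bases away and stood at 222 CPM in Setd2 KO and 192 CPM in wild-type cells, a ratio of 1.16 (interval 1.13 to 1.19). Beside Ptpn11, the ribosomal protein gene Rpl6 stood at 173 CPM in Setd2 KO and 171 CPM in wild-type cells, with 25.5% of its windows shared with other places, and Rph3a was under 1 CPM in both. Beside Sos1, Morn2 had a ratio of 1.74 at only 1.83 CPM in Setd2 KO and 1.05 CPM in wild-type cells, with an interval of 1.24 to 2.45. Its log2 fold with 0.5 CPM added was 0.58, just inside 1.5-fold. The median log2 folds of the chromosomes that carry the 8 genes ran from 0.00 for chromosome 7 to 0.17 for chromosome X, and Nras stood 0.29 above and Ptpn11 0.29 below the median of its own chromosome.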
